A study of Mus musculus with 4 samples.

Results

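The genes described here encode cytokines that act on hematopoietic cells and the receptors of such cytokines. They are the 2 ligands *Kitl* and *Csf1*, the 3 receptor tyrosine kinases *Kit*, *Csf1r* and *Flt3*, and the 4 cytokine receptor genes *Csf2rb*, *Il3ra*, *Il7r* and *Epor*. These 9 genes were chosen by name, and every p53 peak whose centre lay within 200 kb of an annotated transcription start site (TSS) of any of them was taken. This gave 17 of the 7384 deposited peaks (0.230%), at 7 of the 9 genes. Each of the 17 peaks belonged to 1 gene of the set only.

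The peaks come from ChIP-Seq, in which chromatin bound by a protein is recovered with an antibody and sequenced. The 3 p53 libraries were made from Ba/F3 cells without treatment, from Ba/F3 cells 3 h after irradiation with 3 Gy, and from untreated HPC7 cells, with 1 library per condition, and another library was for histone H3K27ac in irradiated Ba/F3 cells and was not used here. Ba/F3 is a mouse B cell progenitor line and HPC7 a mouse line of multipotent progenitors obtained from embryonic stem cells. Both are wild type for p53, and both carried a stably expressed, FLAG-tagged MYSM1 protein under puromycin selection. The medium of Ba/F3 held IL-3 from WEHI conditioned medium, the ligand of the receptor that *Il3ra* and *Csf2rb* encode, and that of HPC7 held stem cell factor, the product of *Kitl*. The file is a single list that names no library, with the position and the number of each peak and without heights or counts, so the list alone gives no depth and does not assign a peak to a cell line or treatment. Peak heights and the cell line of each peak were not analysed here. It also holds no expression values, and the identity of the lines was not checked here.

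Stem cell factor and CSF1 bind KIT and CSF1R, which are related receptor tyrosine kinases, and FLT3 is a further member of that family. The products of *Il3ra*, *Il7r* and *Epor* lack kinase activity and signal through JAK kinases and STAT factors. *Csf2rb* encodes the beta chain that the receptors for IL-3, GM-CSF and IL-5 share. KIT and FLT3 act early in hematopoiesis, CSF1R in macrophages, the IL-7 receptor in lymphoid progenitors and the erythropoietin receptor in red cell precursors. p53 binds DNA as a tetramer at a site made of a pair of half-sites, each with 3 purines, then C, a pair of bases that are A or T, then G and 3 pyrimidines.

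At 5 of the 17 peaks the member itself was the nearest protein-coding gene, and the sequences of these peaks are printed first because they can be tied to the gene by position (100 bp each, mm9, plus strand). Capitals mark a p53 site or, at the peak 16079 bp upstream of *Csf1*, half-sites separated by a spacer, and at the peak of *Epor* a single half-site with at most 1 mismatch. The *Csf2rb* peak has no capitals, as no full site, and no half-site with at most 1 mismatch, was found in its 100 bp.
Kitl, chr10:99399936-99400035: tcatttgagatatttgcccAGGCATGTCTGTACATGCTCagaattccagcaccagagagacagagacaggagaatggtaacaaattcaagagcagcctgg
Csf1, chr3:107562313-107562412: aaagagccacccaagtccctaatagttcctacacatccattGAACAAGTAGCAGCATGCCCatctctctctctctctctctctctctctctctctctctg
Csf1, chr3:107579417-107579516: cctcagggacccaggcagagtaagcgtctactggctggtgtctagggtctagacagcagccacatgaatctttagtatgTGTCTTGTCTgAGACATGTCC
Csf2rb, chr15:78159080-78159179: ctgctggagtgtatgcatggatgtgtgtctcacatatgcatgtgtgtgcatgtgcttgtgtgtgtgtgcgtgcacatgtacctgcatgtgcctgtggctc
Epor, chr9:21770116-21770215: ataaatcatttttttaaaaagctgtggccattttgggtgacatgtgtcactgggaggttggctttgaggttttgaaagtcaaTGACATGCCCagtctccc

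Of the other 12 peaks, 9 had a p53 site, and 8 of these sites are given here to show how they differ (plus strand, all 20 positions in capitals).
Csf1, 66736 bp upstream: TGACATGCCCAGGCAGGGCC
Flt3, 79662 bp downstream: TGGCATGCACAGGCATGTTG
Csf2rb, 152524 bp upstream: TGACAAGTCCATGCTTGTAC
Csf2rb, 92935 bp upstream: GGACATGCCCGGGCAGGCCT
Csf2rb, 126588 bp downstream: GGGCGAGCTTGGGCATGTGC
Il3ra, 104662 bp upstream: GGGCCTGCCCGGGCATGTTC
Il3ra, 194784 bp downstream: GGGCAAGTTCAGGCAGGCCG
Epor, 156422 bp downstream: GAACCAGTTTGGGCATGTTG

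The share of these genes with a peak within 200 kb was close to that of the annotation as a whole. A peak was found at 7 of 9 members (77.8%, 95% Wilson confidence interval 45.3% to 93.7%) and at 75.1% of 22367 protein-coding genes. The median number of peaks was 2 for the members and 2 for all genes, and the means were 1.89 and 2.06. The nearest peak lay at a median of 79662 bp from a member and 74166 bp from a protein-coding gene. Close to the TSS the members' share was higher, with a peak within 10 kb of 3 of 9 genes (33.3%, interval 12.1% to 64.6%) against 15.6% of all genes, but the interval includes that share. Within 50 kb the same 3 genes had a peak, against 40.4% of all genes. The intervals cover counting error over genes or peaks, and with 1 library per condition nothing here can be set against the spread between cultures.

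**Figure D1:**
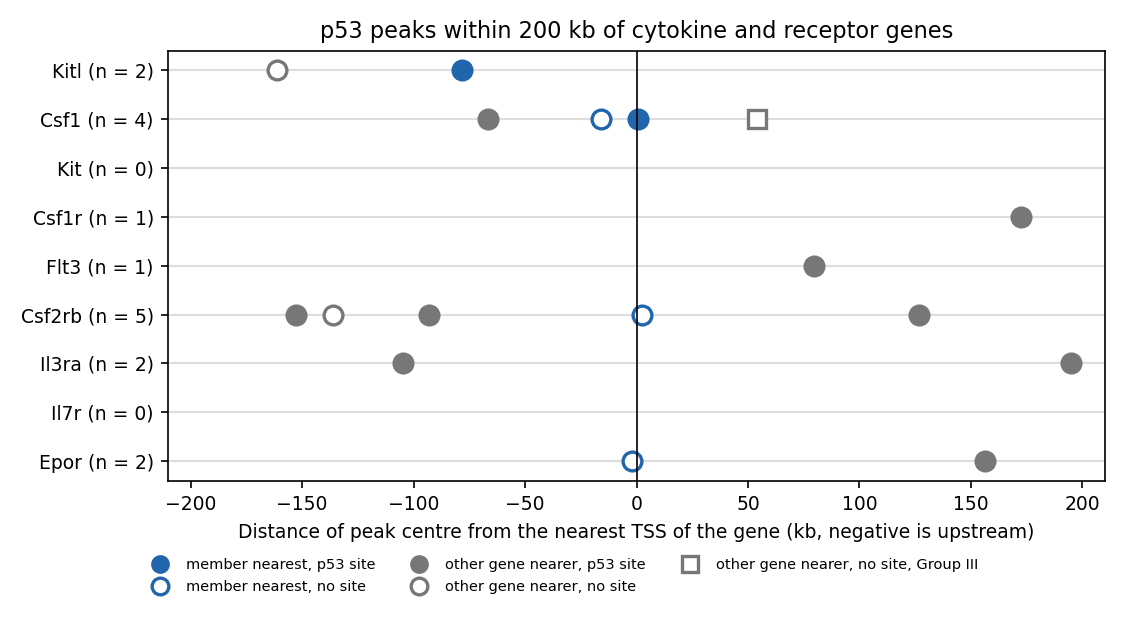
Each symbol is a p53 peak, placed by the signed distance of its centre from the nearest TSS of the gene in kb (x axis) for each of the 9 genes (y axis, n is the number of peaks). Filled symbols have a p53 site, blue ones have the member as the nearest protein-coding gene and the square is the Group III peak. *Csf1*, *Csf2rb* and *Epor* have a peak beside the TSS, and the other genes have none within 50 kb.

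**Figure D2:**
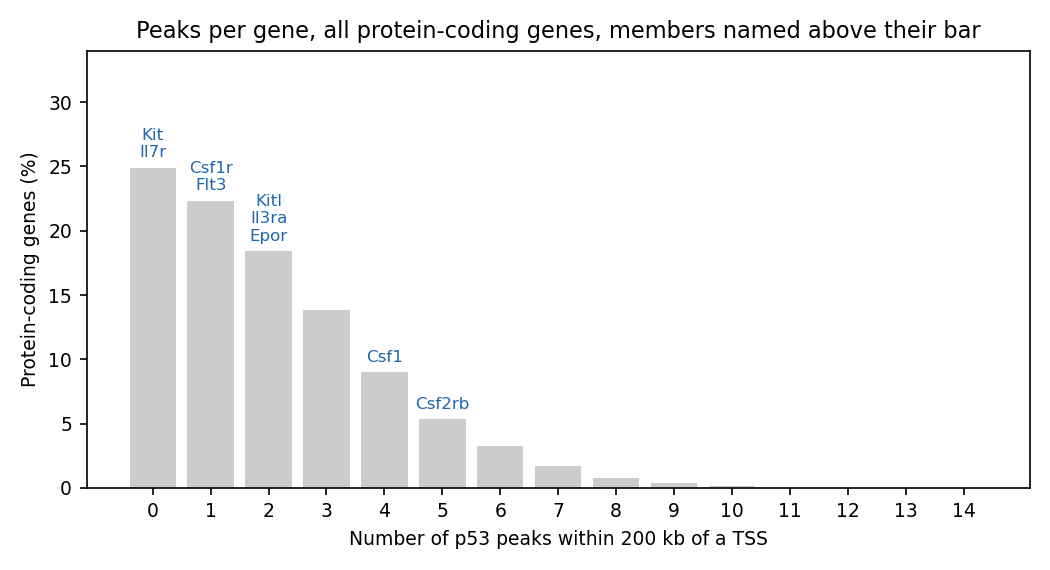
Bars give the share of all 22367 protein-coding genes (y axis, %) by the number of p53 peaks within 200 kb of a TSS (x axis). *Kit* and *Il7r* stand with the 24.9% of genes without a peak, and *Csf2rb* with 5 peaks has the most in the set.

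*Csf1*, the ligand that controls macrophage survival and growth (mm9, chr3:107543966-107563387, minus strand), had the nearest peak of the 9 genes. It has 4 peaks within 200 kb, a number reached by 20.6% of protein-coding genes. The first is in intron 1, centred 777 bp downstream of a TSS, and 5.68% of protein-coding genes had a peak as close. It holds a p53 site with 3 mismatches centred 2 bp from the peak centre, followed by a run of CT dinucleotides that can be read in the sequence above. Its peak number is 514. The authors numbered the peaks by the change in binding after irradiation, largest increase first, so that number is in the first 7.0% of the list. The second peak, number 2846, lies 16079 bp upstream with no other gene nearer. It has no contiguous site, but a pair of half-sites with 2 mismatches in all and 1 base between them, at its right edge.

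The other peaks around *Csf1* were nearer to other genes. The one 66736 bp upstream, number 2068, has a site with 3 mismatches and is 50025 bp from *Eps8l3*. The last, at chr3:107499503-107499602, is 54107 bp downstream of a *Csf1* TSS and beyond the end of the gene, but only 74 bp from the TSS of *Ahcyl1*. Its number is 7123, within Group III, the authors' class of reduced binding. It had no p53 site, 65.5% GC and 18 CpG dinucleotides in the 200 bp around its centre, where Group III as a whole had a median GC of 69.5% and a p53 site at 1.03% of peaks. It was the only one of the 17 peaks outside Group I, the class of increased binding.

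*Kitl*, the ligand of KIT (chr10:99478264-99563047, plus strand), had a peak 78279 bp upstream, number 4146, with the member as the nearest gene. Its site has 1 mismatch, which 24.0% of all peaks reached or bettered, and it is centred 20 bp from the peak centre, the largest offset in the set. A further peak lay 161143 bp upstream at chr10:99317072-99317171, nearer to *Csl*, at 94829 bp. This peak, number 352, stood highest of the 17 in the order of binding gain (first 4.8% of the list) and yet had no p53 site under the search. No other protein-coding gene has a TSS within 200 kb of the TSSs of *Kitl*, and among the 3571 genes with 0 to 2 such neighbors the mean was 1.02 peaks and 55.0% had any. The 2 peaks of *Kitl* are therefore above the mean for genes in such sparse surroundings, and equal to the median of all genes. *Kit* and *Il7r*, of the same class, had 0 peaks.

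Among the receptor tyrosine kinases, binding close to the gene was not found. *Kit* (chr5:75970941-76052747, plus strand) had no peak within 200 kb of its 6 annotated TSSs. The nearest was at 412451 bp, in intron 2 of *Pdgfra*, a neighboring receptor tyrosine kinase of the same family, 6299 bp from the *Pdgfra* TSS, and 89.2% of protein-coding genes had a nearer peak or one as near. *Flt3* (chr5:148142317-148212065, minus strand) had 1 peak, number 2031, at 79662 bp downstream and beyond the 3′ end of the gene, in intron 1 of *Prhoxnb* and 1807 bp from its TSS. The site there has 3 mismatches. The 200 bp around it include sequence with 24936 similar copies in the genome, of which 11 had a peak within 150 bp.

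*Csf1r*, on chromosome 18, also had 1 peak, at 172308 bp downstream and in an intron of *Pde6a*, which encodes a phosphodiesterase of photoreceptors. It is number 3400, with a site of 3 mismatches, 3164 bp from the nearest *Pde6a* TSS, and 4 protein-coding genes were nearer to it than *Csf1r*. The peak belongs to a family of 1155 peaks with similar sequence, and 986 of its 1001 other copies in the genome had a peak.

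*Csf2rb*, which encodes the shared beta chain (chr15:78156420-78184277, plus strand), had 5 peaks within 200 kb, the most in the set and a number reached by 11.6% of protein-coding genes. Among genes with 6 to 10 other protein-coding genes within 200 kb, the class of *Csf2rb*, the mean was 2.17 peaks. The peak that can be tied to the gene by position is in intron 1, 2652 bp downstream of a TSS, and 8.39% of protein-coding genes had one as close. It is number 3969. It had no contiguous site, and the best 20 positions with intact cores had 4 mismatches. A spaced pair of half-sites with 3 mismatches and a spacer of 7 bases lay in the 200 bp around the centre but outside the 100 bp of the peak.

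The remaining peaks around *Csf2rb* were nearest to *Ift27* (642 bp, number 3135), *Pvalb* (14184 bp, number 1151), *Ncf4* (11746 bp, number 4412) and *Tmprss6* (15999 bp, number 1296). *Ncf4* encodes a subunit of the phagocyte NADPH oxidase, *Pvalb* parvalbumin, *Ift27* a protein of ciliary transport, and *Tmprss6* a protease of iron homeostasis. Between 4 and 10 protein-coding genes had a TSS closer to these peaks than *Csf2rb* did. Sites were found at 3 of the 4, with 1 mismatch at the *Ncf4* peak, 2 at the *Tmprss6* peak and 3 at the *Ift27* peak. The *Ncf4* peak belongs to the family of 1155 peaks named above, and 1029 of its 1049 other copies in the genome had a peak. Without the families of similar sequence, 4 peaks remained near *Csf2rb*. The *Pvalb* peak had half-sites separated by 10 bases, with 3 mismatches, and 20 contiguous positions with 2 mismatches when the cores were not required. All 5 peaks also lay within 200 kb of *Csf2rb2*, the adjacent paralog, and 2 of them within 200 kb of *Il2rb*, so the count of 5 belongs to the region and not to 1 receptor gene. The *Csf2rb* intron peak had 0 similar copies elsewhere in the genome at 80% identity over 100 bp, the paralog included.

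*Il3ra*, which encodes the specific chain of the IL-3 receptor (chr14:15179009-15188004, plus strand), had no peak within 100 kb. Its pair of peaks lay 104662 bp upstream, number 4952 with 1 mismatch in its site, and 194784 bp downstream, number 497 with 2 mismatches. The nearest protein-coding genes to them were annotated as the olfactory receptor loci *Olfr720* and *Olfr721-ps1*, at 65716 and 134700 bp. Both peaks are copies of repeated sequence. The first belongs to the family of 1155 peaks, with 879 of its 893 other genomic copies under a peak, and the second to a family of 266 peaks, with 66 of 128 copies under a peak. The second is also the peak closest to the 200 kb limit from inside, and the closest from outside was number 482, at 202842 bp from *Csf2rb*.

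*Epor*, the erythropoietin receptor gene (chr9:21763343-21768020, minus strand), had a peak 2145 bp upstream of its single TSS, and 7.93% of protein-coding genes had one as close. It is number 4440, with 43.5% GC, no CpG and no p53 site. With the cores left free, the best 20 positions had 4 mismatches, and 2 half-sites with at most 1 mismatch lay in the 200 bp. The other peak, number 4245, was in an intron of *Dock6*, 156422 bp downstream of the *Epor* TSS and 8608 bp from *Kank2*, with 10 protein-coding genes closer. It had a site with 2 mismatches centred 1 bp from the peak centre. *Il7r* (chr15:9435916-9459631, minus strand) had no peak within 200 kb and its nearest at 459572 bp, and 90.6% of protein-coding genes had one as near or nearer. The list holds called peaks only, so weaker binding at *Il7r* or *Kit* would not appear in it.

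In all, the member was the nearest protein-coding gene at 5 of 17 peaks (29.4%, 95% Wilson confidence interval 13.3% to 53.1%), where over all 46107 pairs of a protein-coding gene and a peak within 200 kb the share was 14.7%. The interval reaches below that share. By role, the ligands had 6 peaks and were nearest at 3 of them, the receptor tyrosine kinases had 2 and were nearest at 0, and the cytokine receptors had 9 and were nearest at 2. Of the 17 peaks, 9 were upstream and 8 downstream, 10 were intergenic, and 2 lay inside the member itself, both in intron 1. The median distance of 92935 bp was close to the 92332 bp over all pairs. The number of other protein-coding genes within 200 kb, with a median of 7 over all genes, was 10 for *Csf1* and *Csf2rb* and 18 for *Epor*, the genes with a peak within 10 kb. It was 8 for *Csf1r*, 4 for *Flt3*, 3 for *Il3ra*, 2 for *Il7r* and 0 for *Kit* and *Kitl*. Genes with 0 to 2 such neighbors had a mean of 1.02 peaks, and those with 3 to 5 had 1.71. The mean was 2.17 with 6 to 10 neighbors and 2.73 with 11 or more. *Kitl*, *Csf1*, *Csf2rb* and *Il3ra* had more peaks than the mean of their class, and *Kit*, *Il7r*, *Csf1r*, *Flt3* and *Epor* had fewer.

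The p53 site, searched 100 bp either side of each centre on both strands, was called where no more than 3 of the 20 positions differed and the C and G of both half-sites were intact. It was found at 11 of the 17 peaks (64.7%, interval 41.3% to 82.7%). Over the whole list the share was 54.4%. None of the 17 had a perfect site, which 6.15% of all peaks carried, while 3 had 1 mismatch, 3 had 2 and 5 had 3. The sites were centred 1 to 20 bp from the peak centre, with a median of 10 bp against 9 bp over the list. Of the 5 peaks with the member as nearest gene, 2 had a site, and of the other 12, 9 had one. This split is not set here against all pairs of a gene and a peak. All 4 peaks in the repeat families were among the 12. Each of the 4 had a site, as did 92.0% of the family peaks of the list. Outside the families the counts were 7 of 13 near the members and 45.5% over the list. With the families left out, *Csf1r* and *Il3ra* had no peak, which leaves 5 of 9 genes against 68.7% of protein-coding genes.

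**Figure D3:**
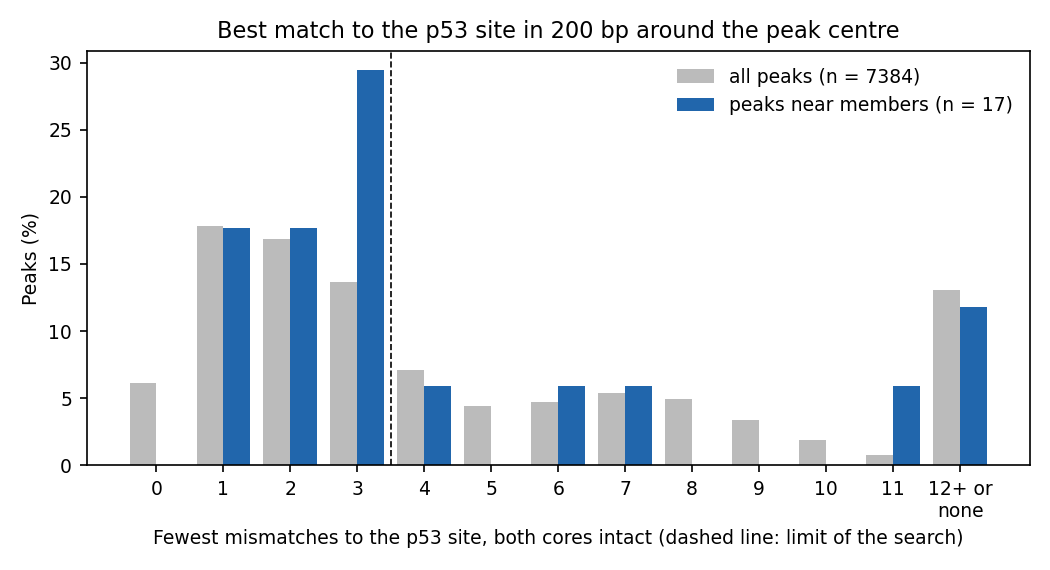
Bars give the share of peaks (y axis, %) by the fewest mismatches to the 20 positions of the p53 site with both cores intact (x axis), for all 7384 peaks in gray and the 17 peaks near members in blue. The dashed line is the limit of 3 mismatches, and 5 of the 11 member sites stand just inside it.

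Short sequences of other factors were counted in the same 200 bp on both strands. The letters AGATAA, bound by factors of the GATA family, occurred at 3 of the 17 peaks and 14.5% of the list, and the 3 were those of the family of 1155 near *Csf1r*, *Csf2rb* and *Il3ra*. Another form, TGATAA, occurred at 0 of 17 and 6.13% of the list. TGTGGT, bound by RUNX factors, was found at the *Flt3* peak alone (12.9% of the list), and TGACTCA, the AP-1 sequence, at the peak 16079 bp upstream of *Csf1* alone (4.97%). GAGGAAGT of PU.1 and GGGGCGGGG of SP1 were at 0 of 17, and at 1.98% and 4.13% of the list. These are matches of letters within 200 bp and not sites shown to be bound.

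By the authors' Groups, 16 of the 17 peaks had increased binding after irradiation (94.1%, interval 73.0% to 99.0%), against 89.9% of the list. Their numbers ran from 352 to 4952 within Group I, with a median of 2990 against 3321 for all Group I peaks. Over all 17 the median was 3135, where the middle of the list is 3692. With the list cut into 4 equal parts, the first held 5 of the peaks, the next 5, the next 6 and the last 1. The peaks with a site had a median number of 3135 and the 6 without one 3408, in the list 3730 and 3642. The 3 lowest numbers, 352, 497 and 514, belonged to *Kitl*, *Il3ra* and *Csf1*, and of these only the *Csf1* peak had the member as its nearest gene. The peaks beside the TSSs of *Csf2rb* and *Epor*, 3969 and 4440, stood at 53.8% and 60.1% of the way down the list.

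**Figure D4:**
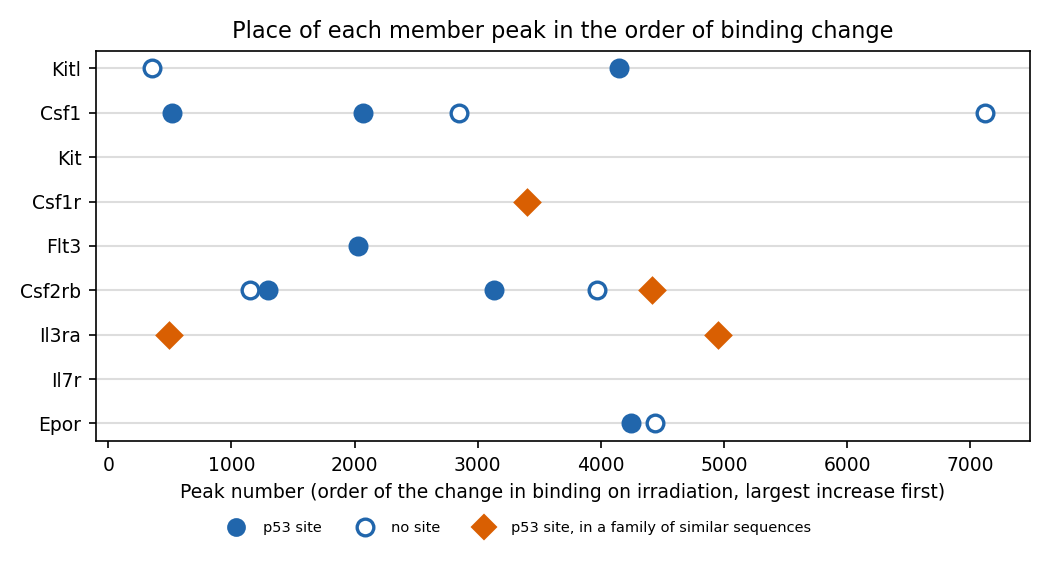
Each symbol is a peak, placed by its number in the order of the change in p53 binding on irradiation (x axis, 1 is the largest increase of 7384) for each gene (y axis). Filled symbols have a p53 site and orange diamonds are copies of a repeated sequence, and the single peak beyond 4952 is the Group III peak near *Csf1*.

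The same counts were made for 3 lists of related genes, to be read against the 75.1% of protein-coding genes with a peak within 200 kb and the 15.6% with one within 10 kb. Of 19 other cytokines, 13 had a peak within 200 kb (68.4%, interval 46.0% to 84.6%) and 1 within 10 kb (5.26%, interval 0.935% to 24.6%), and both intervals include the share of all genes. The 1 gene was *Lif*, which encodes a cytokine of the IL-6 family. Its peak, number 3578, is 300 bp downstream of a TSS. Of the 3 cytokines whose receptors are built with the beta chain, *Il5* had 5 peaks within 200 kb and its nearest at 13639 bp, in the 5′ UTR of *Rad50*, while *Csf2* and *Il3* had none, with their nearest at 348447 and 366057 bp. *Epo*, the ligand of the erythropoietin receptor, had its nearest at 215890 bp. *Il7* had a peak 52140 bp upstream with a perfect p53 site, number 6301. *Thpo*, encoding thrombopoietin, had the most peaks, 6, and was nearest to 0 of them. *Flt3l* had its nearest peak at 60828 bp.

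Of 21 other receptors, 15 had a peak within 200 kb (71.4%, interval 50.0% to 86.2%) and 3 within 10 kb (14.3%, interval 4.98% to 34.6%), and here too both intervals include the share of all genes. The 3 were *Il4ra* (9608 bp upstream, number 1935, site with 3 mismatches), *Il21r* (9283 bp upstream, number 4930, no site) and *Pdgfra*, named above, whose peak is number 5230 with 2 mismatches. *Csf2rb2* had the most peaks, the 5 it shares with *Csf2rb*. The 6 without a peak within 200 kb were the kinases *Pdgfrb*, *Kdr* and *Flt1* and the cytokine receptors *Il5ra*, *Il2rg* and *Lifr*.

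All 23 genes of receptor signaling had a peak within 200 kb (interval 85.7% to 100%), with a median of 3 peaks, and 10 had one within 10 kb (43.5%, interval 25.6% to 63.2%), both shares above those of all genes. Adjacent genes within the lists share peaks, and the intervals count each gene as separate, so they may be too narrow. Promoter peaks were found at *Jak3* (24 bp, number 4499), at *Ptpn11* (7 bp, number 7228), which encodes a tyrosine phosphatase, at *Sh2b3* (29 bp, number 7349), which encodes an inhibitor of cytokine signaling, and at *Jak2* (279 bp, number 7291). The last 3 are Group III peaks, with 78.5% to 84.0% GC in the 200 bp around them, and none of the 4 had a p53 site. *Sos1* (4085 bp upstream, number 189) and *Stat3* (intron 1, number 540) had a site, with 2 and 3 mismatches. *Pik3cd* had a peak at 1897 bp, number 913, without one. For *Socs3* and *Ptpn6* the nearest peaks, at 5597 and 9551 bp, were in Group III, and for *Cish* the nearest, at 6153 bp, lay in the 5′ UTR of *Mapkapk3*. *Tyk2* had the most peaks, 10, and was nearest to 0 of them. No test between these lists and the 9 genes was made, and the lists were drawn up with earlier results of these data known.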

How the data were processed

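According to the paper's methods and the submitters' processing notes, the authors aligned the reads to mm9 using Bowtie 1.0.0 and called p53 peaks using MACS 1.4.1 with input DNA as control. They deposited a single list of 100 bp windows, each with start, end and peak number. The paper's supplement describes its peak list as that of Ba/F3, with a mark for peaks also found in HPC7, which was not used here. How peaks of separate libraries were joined is not given in the sources used here. The numbers follow the fold change in binding on irradiation, and Groups I to III were set from the paper's Group sizes. H3K27ac signal was not analysed here.

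Genes and TSSs came from GENCODE M1 on NCBIM37, the same build as mm9, and comprised 22367 protein-coding genes on the 21 chromosomes with peaks. Distances run from the peak centre to the nearest TSS of any transcript. Sequence was read from that genome. Windows of 200 bp that aligned over 100 bp or more at 80% identity or higher (BLAST+ 2.17.0, word size 11, e-value 1e-10) were joined, and families of at least 100 peaks are named. The member windows were searched against the genome with the same limits. The searches were tested on simulated data. No test was made, since there was 1 library per condition. Shares carry 95% Wilson intervals.

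All members are named with all their peaks. From the other lists, genes with a peak within 10 kb and the gene with the most peaks are named, and *Csf2*, *Il3*, *Il5*, *Epo*, *Il7*, *Flt3l*, *Pdgfrb*, *Kdr*, *Flt1*, *Il5ra*, *Il2rg* and *Lifr* were added after their values were seen. The members and lists were chosen with earlier results of these data known. The tools were samtools 1.23.1 for the genome index, pysam 0.24.0 for sequence, matplotlib 3.10.9 for plots, and SciPy 1.17.1 with NumPy 2.4.6 in Python 3.11.15.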

Additional observations from a re-analysis of the deposited data

How the results depend on the processing

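The distance limit moved the counts most. Within 10 kb there were 3 genes with 3 peaks, within 50 kb 3 genes with 4 peaks, within 100 kb 5 of 9 genes with 9 peaks (57.8% of protein-coding genes had one) and within 500 kb 9 of 9 genes with 45 peaks (91.6%). With only the 3000 peaks of lowest number, 8 peaks at 5 of 9 genes were left (50.0% of protein-coding genes kept one), and without the families of similar sequence 13 peaks at 5 genes, of which 7 had a p53 site. The number of peaks with a site fell to 6 with at most 2 mismatches (40.8% of the list), was 12 with at most 4 (61.5%) and 14 with a spacer of 0 to 13 bases (72.7% of the list). With 4 mismatches and the cores not required, an alternative added once the data had been seen, it was 15 (81.1% of the list). A single TSS per gene, coding transcripts only and merged peaks each left 7 genes and 17 peaks. Search windows of 50 and 200 bp either side each left 11 sites (51.4% and 55.2% of the list). The member was nearest at 5 peaks also with all annotated genes or a single TSS, and the median peak number was 3408 within 50 kb and 3969 for the peaks nearest to a member. The deposited list gives no depth or height, and no limit on weak peaks was tried. No paired analysis was possible because each condition had 1 library and the list has no column of a single library.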

Other observations

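The peak with the largest gain in binding near any of the 9 genes, number 352 at 161143 bp upstream of *Kitl*, had no p53 site by the search used above, and its sequence holds an inverted repeat, which was singled out after it was seen. Capitals mark a stretch of 21 bases and, further along, its exact reverse complement.
Kitl, chr10:99317072-99317171: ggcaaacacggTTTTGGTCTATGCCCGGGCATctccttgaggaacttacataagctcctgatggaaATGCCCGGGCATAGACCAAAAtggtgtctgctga

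An inverted repeat with arms of 21 bases or more was present in the 200 bp windows of 2 of the 7384 peaks (0.0271%) and in 22 of the windows of the same length taken 10 kb upstream of each peak. The next longest arms among the 17 peaks had 10 bases, and the median of the list was 7. With the cores not required, the best 20 positions of this peak had 4 mismatches, GTCTATGCCCGGGCATCTCC, which 81.1% of peaks and 24.9% of the upstream windows reached, and they overlap the first arm. No half-site with an intact core and at most 1 mismatch was found, whereas 73.1% of the 3364 peaks without a full site had one. Whether the arms have a part in the binding was not tested.

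Of the other 5 peaks without a full site, those near *Csf1* 16079 bp upstream, *Csf2rb* 135937 bp upstream and *Epor* 2145 bp upstream had 2 half-sites each, the *Csf2rb* intron peak had 1, and the Group III peak at *Ahcyl1* had 0. At least 2 half-sites were found in 10 of the 17 windows, in 58.1% of all peaks and in 10.7% of the upstream windows.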
